A study of Mus musculus with 15 samples.

Results

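The EGF family ligands and receptors described here are 10 genes picked by symbol: the ligands Egf, Areg, Ereg, Hbegf, Tgfa, Btc and Epgn, and the receptors Egfr, Erbb2 and Erbb3. They are 10 of the 45905 genes in each of 2 tables of reads per gene, 1 for organoids and 1 for gut, and all 10 were found in both. Poly(A) RNA of mouse gut and of organoids grown from it was sequenced in 15 libraries, 3 in each of 5 groups, in a study of what the junction protein plakoglobin, encoded by Jup, does in the intestinal epithelium. Organoids are small hollow bodies of epithelium that grow from crypts embedded in gel. The growth factors of their medium are not given in the sources used here.

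The Tamoxifen organoids, all coded T41, are titled JUPfl/fl, that is with a floxed Jup gene, and iVilCre ERT2, a Cre recombinase driven by the villin promoter in intestinal epithelium that acts once tamoxifen is present. The DMSO and the nativ organoids all carry the code T75 and are titled JUPfl/fl with no Cre. DMSO is the usual solvent of tamoxifen, and nativ is used only as a group name. Code, Cre and treatment change together between the Tamoxifen organoids and the other organoids, so their parts in a difference cannot be told apart. Gut libraries described as PG_KO are titled JUPfl/fl with DSS colitis, an inflammation of the colon brought on by dextran sodium sulfate, and those described as ctr are titled iVilCre ERT2 JUPfl/fl. Titles and descriptions therefore disagree on which gut group carried Cre. The groups follow the descriptions, and which animals received DSS or tamoxifen is not settled by the labels. All 5 groups share the floxed gene by title, and the ages of the animals are not given in the sources used here. The labels do not say that replicates came from separate cultures or animals, although each gut library has a code of its own. The p-values therefore measure only the spread between these samples, and in organoids none of them measures the spread between codes.

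Ligands of the EGF family are made as membrane-anchored precursors and are cut free by proteases, chiefly ADAM17, to act on the same or on neighbouring cells. They bind EGFR, and some also bind ERBB4. ERBB2 has no known ligand of its own and ERBB3 has little kinase activity, so both signal in complexes with other members. In the intestine EGFR signalling supports proliferation of crypt cells and repair of the epithelium after injury, and EGF is a common additive of organoid media.

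Library totals ran from 25185053 to 30744563 reads in organoids and from 23194385 to 29257641 in gut. Levels are given in CPM, counts per unit of library total. A level resting on 3 reads lay between 0.0976 and 0.129 CPM depending on the library, a floor that covers counting error only. Log2 changes come from edgeR and are called at an adjusted p under 0.05. Jup had 69.0, 70.9 and 71.2 CPM in Tamoxifen organoids, against 360, 378 and 414 CPM in DMSO and 386, 275 and 395 CPM in nativ organoids. In gut Jup had 75.2, 82.8 and 80.3 CPM in PG_KO, against 302, 375 and 495 CPM in ctr libraries. Jup was thus low in the groups described as Tamoxifen and PG_KO, with no overlap. Epithelial markers (Epcam, Cdh1, Krt8, Krt18, Krt19 and Cldn7) were present in every group, and 6 fibroblast markers summed to at most 1.50 CPM in any organoid library. Within the Tamoxifen group pairs of libraries had a chi-square per degree of freedom, near 1 for counting error alone, that was 2.21 to 3.72, against 29.6 to 57.4 within DMSO and 7.99 to 105 within nativ.

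The ligands of the Tamoxifen organoids differed from those of both T75 groups in 2 directions. Areg, Ereg and Btc were higher, Hbegf and Tgfa were lower, and Erbb2 and Erbb3 passed the test in neither comparison. Of 9 members tested, 3 were called higher and 3 lower against DMSO organoids, where 66.3% of all 16449 tested genes were called, 33.9% higher and 32.4% lower. Against nativ organoids 4 were called higher and 2 lower, where 66.9% of tested genes were called, 33.5% in each direction. A count of 6 in 9 is close to these backgrounds, so the count does not set the family apart. Median log2 changes over the 9 members were 0.05 against DMSO and 0.21 against nativ, where the medians over all tested genes were 0.02 and 0.01. Both comparisons use the same 3 Tamoxifen libraries. Fewer cells of a type and less RNA per cell cannot be told apart in such bulk libraries.

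**Figure D1:**
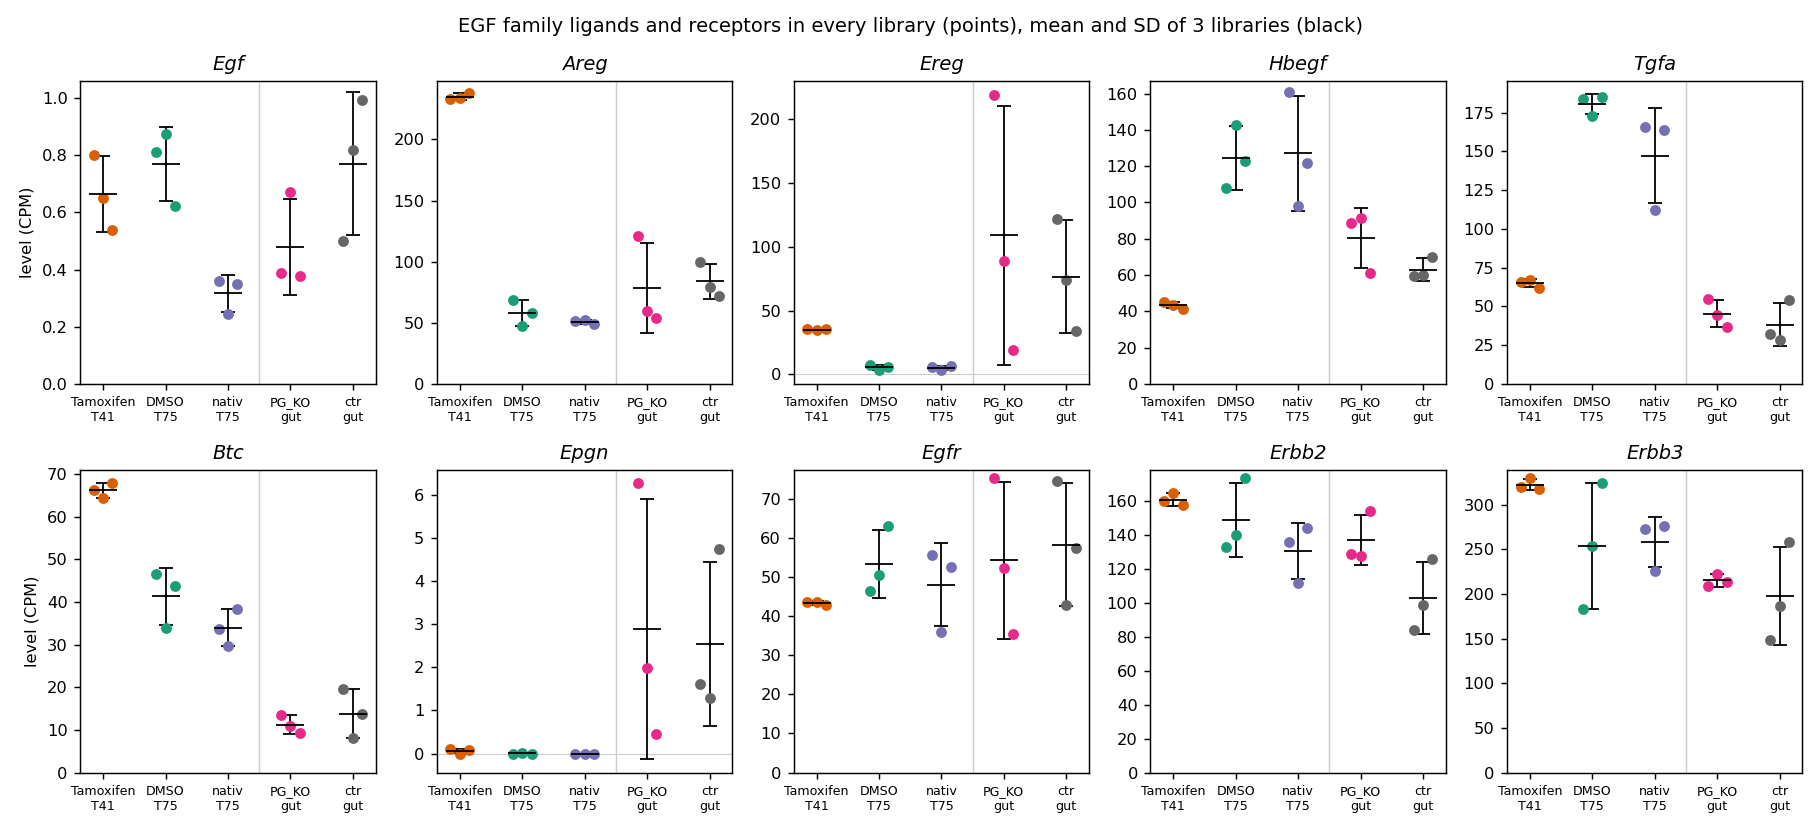
Level (CPM, linear axes that include 0) of each EGF family gene in every library: points are single libraries, and black bars show the mean and SD of 3 libraries for Tamoxifen T41, DMSO T75 and nativ T75 organoids and for PG_KO and ctr gut. The 3 Tamoxifen libraries lie at 233 to 238 CPM for Areg, above all others, and at 41.5 to 45.1 CPM for Hbegf, below all others.

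Areg encodes amphiregulin, a ligand of EGFR that is induced in intestinal epithelium during repair. Areg had 233, 234 and 238 CPM in Tamoxifen organoids, against 68.4, 47.4 and 57.8 CPM in DMSO organoids and 51.30, 52.05 and 48.93 CPM in nativ organoids. Every Tamoxifen library lay above every other library of the series, and the T75 groups overlapped. Areg was 3.89-fold higher than in DMSO organoids (log2 change 1.96, SE 0.12, adjusted p = 1.84e-07) and 4.25-fold higher than in nativ organoids (2.09, SE 0.12, adjusted p = 1.16e-07).

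Ereg encodes epiregulin, which binds EGFR and ERBB4. Ereg had 35.3, 34.6 and 35.5 CPM in Tamoxifen organoids, against 7.54, 3.61 and 5.64 CPM in DMSO organoids and 5.70, 3.43 and 6.61 CPM in nativ organoids. The Tamoxifen libraries stood apart from both T75 groups, which overlapped. Ereg rose 5.99-fold over DMSO (log2 change 2.58, SE 0.23, adjusted p = 2.83e-06) and 6.23-fold over nativ (2.64, SE 0.23, adjusted p = 2.53e-06). These were the largest log2 changes among the members. A long noncoding gene on the opposite strand, Gm19610, overlaps the start of Ereg by 319 bases and had 420 reads over the 3 Tamoxifen libraries, 37 over the DMSO libraries and 48 over the nativ libraries. The strand setting of the read counting is not given in the sources used here, so reads in the overlap cannot be told apart, though the level of Gm19610 was well under that of Ereg in each of these groups.

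Btc encodes betacellulin, another ligand of EGFR and ERBB4. Btc had 66.3, 64.4 and 68.0 CPM in Tamoxifen organoids, against 46.5, 33.8 and 43.7 CPM in DMSO organoids and 33.7, 29.7 and 38.4 CPM in nativ organoids. The Tamoxifen libraries were again above all T75 libraries, by a smaller margin than for Areg and Ereg. Btc rose 1.53-fold over DMSO (log2 change 0.62, SE 0.11, adjusted p = 0.000483) and 1.80-fold over nativ (0.85, SE 0.11, adjusted p = 4.92e-05).

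Hbegf encodes heparin-binding EGF-like growth factor, a ligand of EGFR and ERBB4 that is also an early response gene in many cells. Hbegf had 45.1, 43.7 and 41.5 CPM in Tamoxifen organoids, against 108, 143 and 123 CPM in DMSO organoids and 161, 98.2 and 122 CPM in nativ organoids. No Tamoxifen library reached the lowest T75 library. Hbegf fell 3.02-fold relative to DMSO (log2 change -1.59, SE 0.15, adjusted p = 5.45e-06) and 3.15-fold relative to nativ (-1.65, SE 0.15, adjusted p = 4.23e-06).

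Tgfa encodes transforming growth factor alpha, an EGFR ligand made by differentiated intestinal epithelium. Tgfa had 65.9, 66.9 and 61.9 CPM in Tamoxifen organoids, against 184, 173 and 185 CPM in DMSO organoids and 166, 112 and 164 CPM in nativ organoids. The 3 groups did not overlap. Tgfa fell 2.92-fold relative to DMSO (log2 change -1.54, SE 0.10, adjusted p = 3.03e-07) and 2.44-fold relative to nativ (-1.29, SE 0.10, adjusted p = 1.28e-06).

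The remaining ligands were scarce. Egf itself had 0.802, 0.651 and 0.537 CPM in Tamoxifen organoids, from 24, 20 and 15 reads, against 0.812, 0.874 and 0.623 CPM in DMSO organoids and 0.360, 0.243 and 0.348 CPM in nativ organoids. Tamoxifen and DMSO libraries overlapped, and both groups lay above nativ. Egf passed the test against nativ only (log2 change 0.94, SE 0.31, adjusted p = 0.02), and not against DMSO (-0.27, SE 0.28, adjusted p = 0.406). The call against nativ was lost with DESeq2 (adjusted p = 0.0511), without a low-count filter (0.0514), and without Tamoxifen replicate 1 (0.0945), Tamoxifen replicate 2 (0.0547) or nativ replicate 2 (0.0569). Epgn, which encodes epigen, had 5 reads over the 3 Tamoxifen libraries, 0.5 reads over the DMSO libraries and 0 reads over the nativ libraries, and was not tested in organoids.

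**Figure D2:**
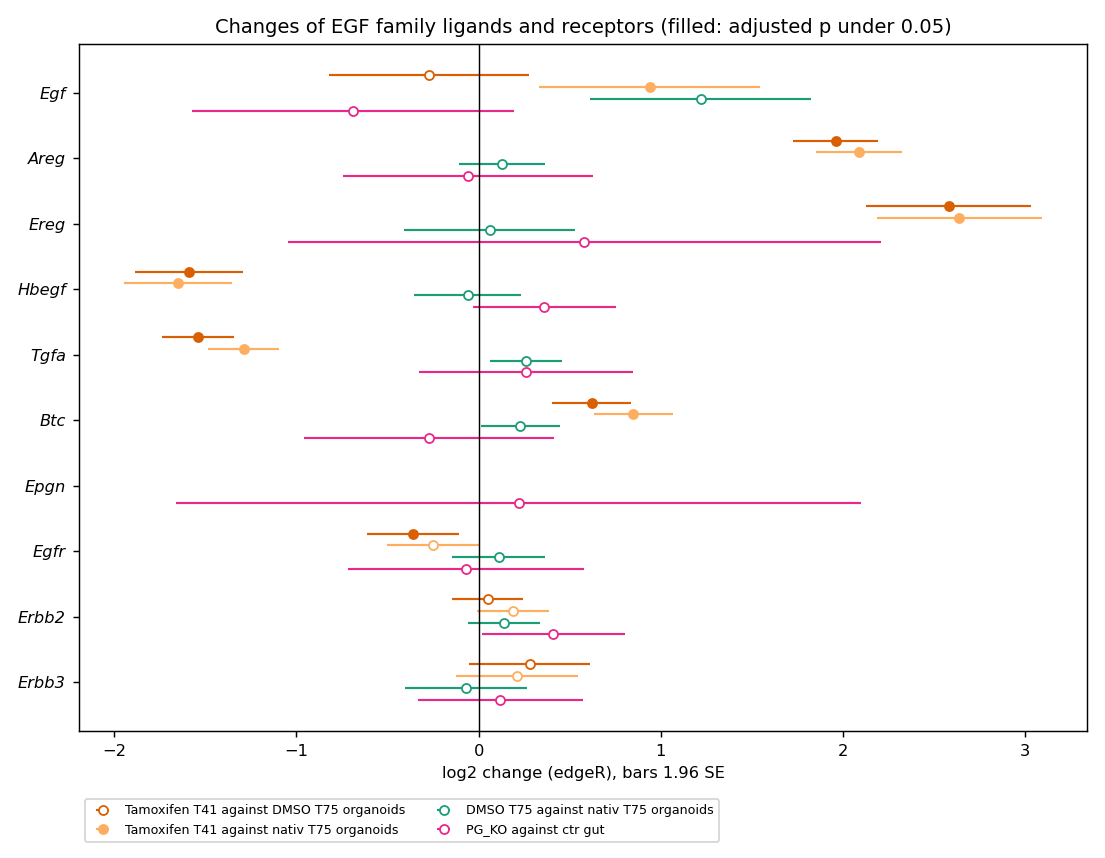
Log2 change of each member (x axis, edgeR) in 4 comparisons, with bars of 1.96 SE that are not adjusted for the number of genes and filled points where the adjusted p was under 0.05. Areg, Ereg, Btc, Hbegf and Tgfa are filled in both comparisons of Tamoxifen organoids, and no point is filled for DMSO against nativ organoids or for PG_KO against ctr gut.

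Of the receptors, Egfr alone was called, and against DMSO only. Egfr had 43.6, 43.6 and 42.8 CPM in Tamoxifen organoids, against 46.3, 50.5 and 62.9 CPM in DMSO organoids and 55.7, 35.9 and 52.4 CPM in nativ organoids. All Tamoxifen libraries were below all DMSO libraries and inside the range of the nativ libraries. Egfr fell 1.29-fold relative to DMSO (log2 change -0.36, SE 0.13, adjusted p = 0.0323), and its change of -0.25 against nativ (SE 0.13, adjusted p = 0.115) did not pass. The call against DMSO was lost with scaling by library totals (-0.30, adjusted p = 0.141), and without DMSO replicate 2 (adjusted p = 0.067), DMSO replicate 3 (0.129) or any 1 of the Tamoxifen libraries (0.0703 to 0.0766). Against nativ, Egfr passed without nativ replicate 2 (-0.39, adjusted p = 0.00976).

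Erbb2 encodes the partner receptor without a known ligand. Erbb2 had 160, 165 and 158 CPM in Tamoxifen organoids, against 133, 140 and 174 CPM in DMSO organoids and 136, 112 and 144 CPM in nativ organoids. Tamoxifen libraries lay inside the DMSO range and above the nativ libraries. Its log2 changes of 0.05 (SE 0.10, adjusted p = 0.703) against DMSO and 0.19 (SE 0.10, adjusted p = 0.131) against nativ did not pass, with intervals of 1.96 SE from -0.16 to 0.25 and from -0.01 to 0.39.

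Erbb3 encodes the receptor with little kinase activity, which binds neuregulins. Erbb3 had 320, 330 and 318 CPM in Tamoxifen organoids, against 183, 254 and 325 CPM in DMSO organoids and 273, 226 and 276 CPM in nativ organoids. DMSO replicate 3 overlapped the Tamoxifen libraries, and the nativ libraries were below them. Log2 changes of 0.28 (SE 0.17, adjusted p = 0.17) and 0.21 (SE 0.17, adjusted p = 0.3) did not pass. Without DMSO replicate 3 the change against DMSO was 0.47 (adjusted p = 0.0231), and in a fit of only the 6 libraries compared the change against nativ was 0.20 (adjusted p = 0.0431).

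Cell type markers differed between these organoid groups as well. Counts called against DMSO are to be read beside all tested genes, of which 33.9% were called higher and 32.4% lower. Of 6 small intestinal enterocyte markers (Fabp2, Alpi, Apoa4, Apob, Sis and Lct), 6 of 6 were called higher in Tamoxifen than in DMSO organoids, and their summed level was 4139 to 4798 CPM in Tamoxifen, against 0.516 to 0.672 CPM in DMSO and 0.688 to 5.11 CPM in nativ libraries. Of 6 Paneth cell markers (Lyz1, Mmp7, Ang4, Itln1, Defa24 and Defa17), 5 were called higher and 1 lower than in DMSO, with sums of 4139 to 4246 CPM in Tamoxifen, 1685 to 2818 CPM in DMSO and 1970 to 2283 CPM in nativ libraries, and Defa24 was at 0 reads in DMSO. The 1 called lower was Mmp7, a matrix protease gene, which averaged 190 CPM in Tamoxifen, 2403 CPM in DMSO and 2120 CPM in nativ organoids and so made up nearly all of the T75 sums. Each of the other 5 had at most 8 reads over the DMSO libraries and at most 40 over the nativ libraries, and averaged 101 CPM or more in Tamoxifen organoids. Of 4 tested tuft cell markers, 1 was called higher and 2 lower than in DMSO. Log2 changes against DMSO were -4.86 for Dclk1, -1.17 for Avil and 1.92 for Trpm5, and Pou2f3, at 0.54, was not called. The 6 genes of that list summed to 4.58 to 6.65 CPM in Tamoxifen, 36.2 to 50.9 CPM in DMSO and 29.4 to 53.0 CPM in nativ libraries. Gfi1b and Il25 were at 0 reads in DMSO and Gfi1b in nativ. Of 6 epithelial markers, 4 were called higher and 1 lower than in DMSO, and their sums were 9334 to 9493 CPM in Tamoxifen, 6388 to 7840 CPM in DMSO and 8212 to 8323 CPM in nativ libraries. Their part in the differences between ligands was not tested.

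The makeup of the ligand transcripts was compared per length, as reads per kb of combined exon length. Areg made up 75.2% ± 0.458 of the summed level of the 7 ligands in Tamoxifen organoids, against 30.8% ± 4.61 in DMSO and 30.4% ± 4.90 in nativ organoids (SD, n = 3 each). Hbegf made up 7.11% ± 0.331 in Tamoxifen, 34.2% ± 6.01 in DMSO and 38.0% ± 4.28 in nativ organoids, and Tgfa 5.32% ± 0.249 in Tamoxifen, 24.7% ± 0.386 in DMSO and 22.1% ± 2.30 in nativ organoids. Amphiregulin transcripts thus outnumbered all other ligand transcripts in Tamoxifen organoids, whereas in T75 organoids Areg, Hbegf and Tgfa were each at 19.9% or more in every library.

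Btc kept a like share of 8.96% ± 0.192 in Tamoxifen, 9.29% ± 1.23 in DMSO and 8.52% ± 1.02 in nativ organoids, although its level was higher in Tamoxifen. Ereg was 3.30% ± 0.0278 in Tamoxifen, 0.872% ± 0.281 in DMSO and 0.901% ± 0.220 in nativ organoids. The 7 ligands together came to 257 ± 1.62 RPKM (CPM per kb of exon) in Tamoxifen, 154 ± 5.11 RPKM in DMSO and 139 ± 19.5 RPKM in nativ organoids. Without scaling by length Areg was 52.8% in Tamoxifen, 14.1% in DMSO and 14.3% in nativ organoids, since its exons are the shortest of the family at 1215 bases.

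**Figure D3:**
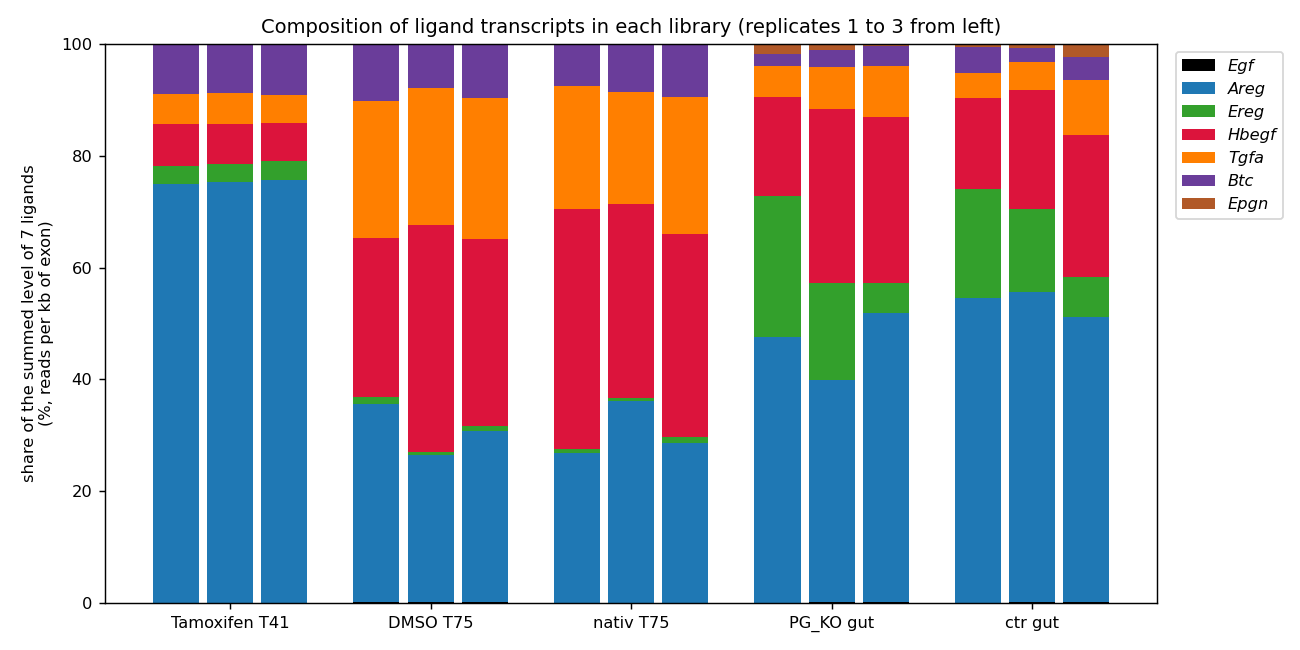
Share (%) of each ligand in the summed length-scaled level of the 7 ligands, 1 stacked bar a library, with replicates 1 to 3 from the left within Tamoxifen T41, DMSO T75, nativ T75, PG_KO gut and ctr gut. Areg fills 74.8% to 75.7% of the bars of Tamoxifen organoids and 26.3% to 36.0% of those of T75 organoids, and Ereg is widest in gut.

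Per length, Erbb3 was the main receptor transcript in every group. It made up 58.0% ± 0.0501 of the summed level of Egfr, Erbb2, Erbb3 and Erbb4 in Tamoxifen organoids, 52.2% ± 4.09 in DMSO and 56.3% ± 0.951 in nativ organoids, with 50.1% ± 2.16 in PG_KO and 52.2% ± 4.79 in ctr gut. Egfr made up 7.25% ± 0.107 in Tamoxifen, 10.4% ± 0.698 in DMSO and 9.64% ± 1.08 in nativ organoids, and 11.8% ± 4.30 in PG_KO and 14.9% ± 5.86 in ctr gut. Erbb4 had 0 reads in the Tamoxifen, nativ and ctr libraries, 3 reads over the DMSO libraries and 3 reads over the PG_KO libraries. Summed receptor levels were 92.8 ± 1.88 RPKM in Tamoxifen, 80.4 ± 17.2 RPKM in DMSO and 76.7 ± 9.50 RPKM in nativ organoids, and 71.7 ± 0.785 RPKM in PG_KO and 62.7 ± 12.7 RPKM in ctr gut.

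Nrg1 and Nrg4, which encode neuregulins, ligands of ERBB3 or ERBB4, were lower in Tamoxifen organoids. Nrg1 had 0, 0.0325 and 0 CPM in Tamoxifen organoids, against 6.26, 7.31 and 6.49 CPM in DMSO and 6.88, 2.95 and 6.12 CPM in nativ organoids. With 1 read over the Tamoxifen group, the level in DMSO was 589 times as high (95% counting interval 105 to 23318) and that in nativ 474 times as high (84.6 to 18746). Nrg4 averaged 2.30 ± 0.447 CPM in Tamoxifen, 7.52 ± 0.830 CPM in DMSO and 6.73 ± 0.302 CPM in nativ organoids (SD, n = 3 each), with log2 changes of -1.77 (SE 0.18, adjusted p = 1.01e-05) against DMSO and -1.67 (SE 0.19, adjusted p = 1.69e-05) against nativ. Nrg1 and Nrg4 were the 2 tested genes among the 5 of this list (Nrg1 to Nrg4 and Erbb4), and both were called lower in both comparisons. Of the untested genes, Nrg2 had 20.6 reads over the Tamoxifen libraries, against 8.25 over the DMSO and 4 over the nativ libraries, and Nrg3 had 0 reads in all of them.

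Epgn, Ereg, Areg and Btc lie together on chromosome 5 of GRCm38.p6, within 375 kb, the first 3 on the plus strand and Btc on the minus strand. Epgn lies at 91027517 to 91035212, Ereg at 91074617 to 91093649, Areg at 91139599 to 91148432 and Btc at 91357261 to 91402994. The 3 of them that were tested in organoids were all called higher in Tamoxifen than in both T75 groups. Of all tested genes 33.9% were called higher against DMSO and 33.5% against nativ. Mean levels of the next protein-coding genes on either side were not higher in Tamoxifen organoids. Mthfd2l averaged 6.76 CPM in Tamoxifen, 6.95 CPM in DMSO and 7.16 CPM in nativ organoids. Parm1 averaged 54.4 CPM in Tamoxifen, 114 CPM in DMSO and 102 CPM in nativ organoids, and the chemokine genes Cxcl1 and Cxcl2 beyond Mthfd2l were at 0.504 and 0.447 CPM in Tamoxifen, against 27.2 and 9.11 CPM in DMSO and 42.6 and 16.3 CPM in nativ organoids. These neighbours were taken by position and are given as means, with no test.

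**Figure D4:**
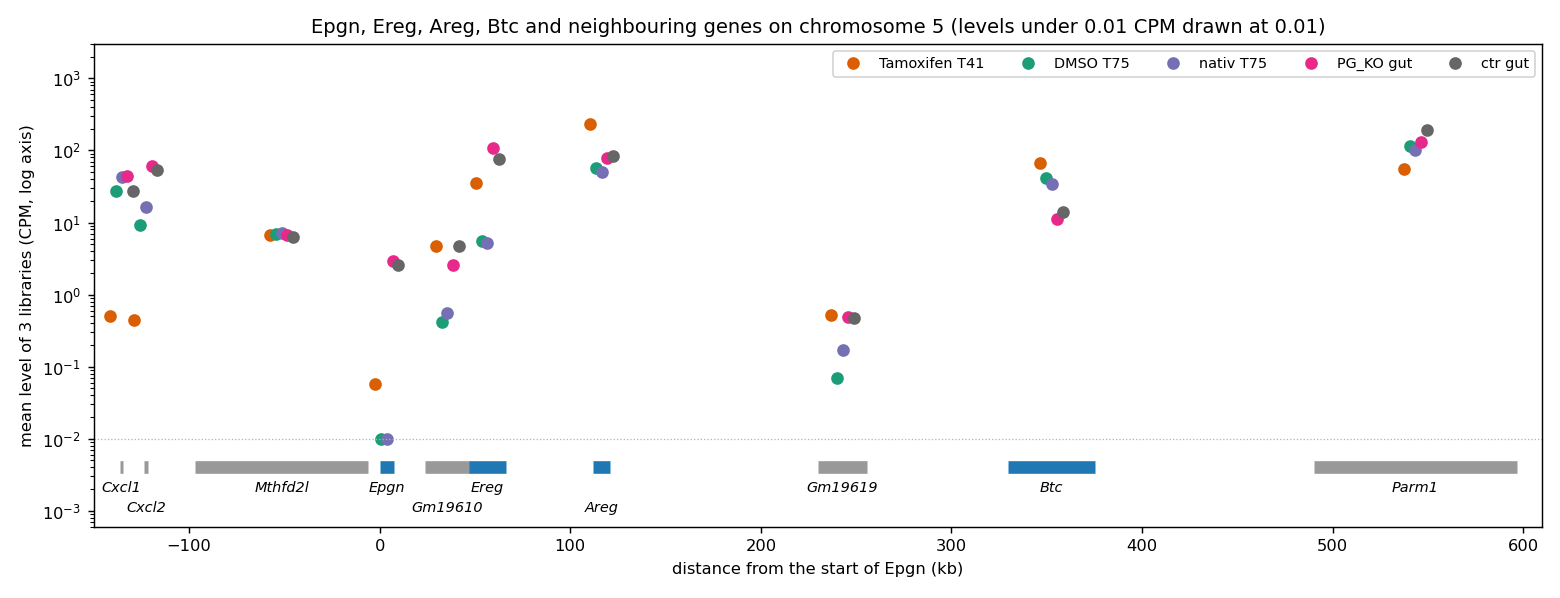
Mean level of 3 libraries (CPM, log axis) of the genes around the cluster of 4 ligands, by distance from the start of Epgn (kb), for Tamoxifen T41, DMSO T75 and nativ T75 organoids and PG_KO and ctr gut, with gene bodies drawn to scale below (members in blue). Tamoxifen points are the highest for Areg and Btc, the middle ones for Ereg, and the lowest for Cxcl1, Cxcl2 and Parm1.

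Promoters were taken from RefSeq entries of GRCm38.p6 for 7 of the 10 members. Those of Areg and Btc are shown because these neighbours rose together by unequal amounts in Tamoxifen organoids and are among these 7. Each is the 250 bases before the start site, read 5′ to 3′ on the strand of the gene, with matches to the searched motifs in capitals. The Areg window is chr5:91139349-91139598 on the plus strand and the Btc window chr5:91402995-91403244 on the minus strand.
Areg: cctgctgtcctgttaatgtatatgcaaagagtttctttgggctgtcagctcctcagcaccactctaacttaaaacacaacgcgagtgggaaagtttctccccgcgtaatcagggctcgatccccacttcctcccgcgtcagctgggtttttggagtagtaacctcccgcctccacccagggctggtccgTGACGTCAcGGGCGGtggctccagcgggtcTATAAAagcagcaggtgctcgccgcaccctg
Btc: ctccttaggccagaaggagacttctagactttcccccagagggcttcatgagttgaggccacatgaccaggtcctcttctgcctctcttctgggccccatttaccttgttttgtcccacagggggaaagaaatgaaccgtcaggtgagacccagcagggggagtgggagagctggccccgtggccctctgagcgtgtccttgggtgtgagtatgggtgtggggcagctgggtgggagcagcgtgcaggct
The letters searched on both strands were TGANTCA for AP-1, TGACGTCA for the cAMP response element, GGGCGG for the GC box, TATAAA for the TATA box and GGAATG for TEAD. In the Areg window the cAMP response element stood at -61 to -54, the GC box at -52 to -47 and the TATA box at -31 to -26 from the start site, with no overlap. The Btc window held none of these letters. Of 32851 promoters of the same length, 1.55% held the cAMP response element, 32.7% the GC box, 12.4% the TATA box, 6.75% the AP-1 motif and 12.6% the TEAD motif. A match is a description of the letters and not a site in use.

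Outside this cluster, Egf lies on chromosome 3 at 129677574 to 129755322 (minus strand), Tgfa on chromosome 6 at 86195038 to 86275743 (plus strand) and Hbegf on chromosome 18. Egfr lies on chromosome 11 at 16752203 to 16913907 and Erbb2 on the same chromosome at 98412484 to 98437716, both on the plus strand, and Erbb3 on chromosome 10 at 128567523 to 128589635 (minus strand). Erbb2 overlaps the opposite-strand gene Mien1 by 9 bases, and the other genes that overlap a member, all noncoding, averaged at most 4.77 CPM in any group.

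None of the genes that process ligands and receptors was called higher in Tamoxifen organoids. Of 8 genes, 5 were called lower than in DMSO and 3 lower than in nativ, with medians of -0.47 and -0.21. Over all tested genes 32.4% and 33.5% were called lower, and 33.9% and 33.5% higher. Timp3, an inhibitor of ADAM17, had 2.61, 2.05 and 2.22 CPM in Tamoxifen, against 1988, 684 and 431 CPM in DMSO and 464, 229 and 411 CPM in nativ organoids, log2 changes of -8.87 (SE 0.64, adjusted p = 5.55e-07) and -7.42 (SE 0.61, adjusted p = 1.57e-06). Rhbdf2, a rhomboid-like partner that brings ADAM17 to the cell surface, fell by 0.74 against DMSO (SE 0.11, adjusted p = 0.000171) and by 0.61 against nativ (SE 0.11, adjusted p = 0.000621). Rhbdf1, a relative of Rhbdf2, fell by 0.59 (SE 0.10, adjusted p = 0.000474) and by 0.47 (SE 0.10, adjusted p = 0.00188). Furin, the gene of a protease that matures growth factor precursors, fell by 0.51 against DMSO (SE 0.10, adjusted p = 0.00137), as did Adam17 itself by 0.44 (SE 0.11, adjusted p = 0.00622). Neither passed against nativ, where Furin was at -0.15 (SE 0.10, adjusted p = 0.234) and Adam17 at -0.09 (SE 0.11, adjusted p = 0.523). Rhbdl2, a rhomboid protease gene, was at -0.28 against nativ (SE 0.18, adjusted p = 0.194) and did not pass.

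Signal transducers below the receptors went both ways. Of 26 genes, 7 were called higher and 8 lower than in DMSO, and 8 higher and 10 lower than in nativ, with medians of -0.05 and 0.00. The shares over all tested genes were 33.9% higher and 32.4% lower against DMSO, and 33.5% in each direction against nativ. Gab1, a docking protein, fell by 0.86 (SE 0.12, adjusted p = 0.000114) and by 0.62 (SE 0.12, adjusted p = 0.00113), and the adaptor gene Shc1 fell by 0.60 (SE 0.08, adjusted p = 5.97e-05) and by 0.41 (SE 0.08, adjusted p = 0.000891). Map2k2, the gene of a kinase that activates ERK, rose by 0.63 (SE 0.10, adjusted p = 0.000162) and by 0.56 (SE 0.10, adjusted p = 0.000408).

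Feedback inhibitors of the pathway were lower more often than higher. Of 20 genes, 2 were called higher and 10 lower than in DMSO, and 3 higher and 9 lower than in nativ, with medians of -0.31 and -0.20. Over all tested genes 32.4% and 33.5% were called lower, and 33.9% and 33.5% higher. Errfi1, whose product binds and inhibits ERBB kinases, had 103, 106 and 97.8 CPM in Tamoxifen, against 317, 487 and 464 CPM in DMSO and 475, 288 and 390 CPM in nativ organoids, log2 changes of -2.12 (SE 0.19, adjusted p = 2.54e-06) and -2.02 (SE 0.19, adjusted p = 3.81e-06). Spry2, an inhibitor of RAS signalling, fell by 1.69 (SE 0.13, adjusted p = 1.15e-06) and by 1.63 (SE 0.13, adjusted p = 1.59e-06). Of the SOCS family, Socs5 fell by 1.63 against DMSO (SE 0.14, adjusted p = 2.15e-06) and Socs3 by 1.23 against nativ (SE 0.13, adjusted p = 1.03e-05). Lrig3, of a family of membrane proteins that act on ERBB receptors, went the other way, with 38.7, 37.6 and 37.0 CPM in Tamoxifen, against 0.372, 0.278 and 0.393 CPM in DMSO and 0.753, 0.554 and 0.139 CPM in nativ organoids, a log2 rise of 6.67 (SE 0.31, adjusted p = 1.73e-08) and 6.15 (SE 0.30, adjusted p = 2.26e-08).

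Transcripts that respond to ERK were likewise called lower more often than higher. Of 13 genes, 2 were called higher and 8 lower than in DMSO, and 3 higher and 7 lower than in nativ, with medians of -1.05 and -0.99. Dusp6 and Spry4 are on this list and on that of the feedback inhibitors. Dusp6 was not called, at -0.15 against DMSO (adjusted p = 0.216) and 0.08 against nativ (adjusted p = 0.517). Spry4 was at 0.25 against DMSO (adjusted p = 0.283) and was called higher against nativ (0.80, adjusted p = 0.0049). Emp1 was called higher in both comparisons (1.47 and 1.30), and Etv5 was called in neither (-0.33 and -0.05). Ier3, an immediate early gene, had 40.95, 44.76 and 39.75 CPM in Tamoxifen, against 160, 203 and 225 CPM in DMSO and 243, 213 and 236 CPM in nativ organoids, log2 changes of -2.30 (SE 0.13, adjusted p = 7.35e-08) and -2.58 (SE 0.13, adjusted p = 3.28e-08). Plaur, the urokinase receptor gene, fell by 1.63 (SE 0.16, adjusted p = 7.55e-06) and by 1.55 (SE 0.16, adjusted p = 1.16e-05), and Ccnd1, the gene of cyclin D1, fell by 1.82 against DMSO (SE 0.19, adjusted p = 9.95e-06). Fos, part of AP-1, fell by 1.30 against nativ (SE 0.13, adjusted p = 9.62e-06). Etv4, an ETS transcription factor gene, rose by 1.38 (SE 0.10, adjusted p = 3.71e-07) and by 1.65 (SE 0.10, adjusted p = 9.56e-08). In all these lists the share called in either direction is to be read against 66.3% and 66.9% of all tested genes. The share called lower is to be read against 32.4% and 33.5%, and that called higher against 33.9% and 33.5%.

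**Figure D5:**
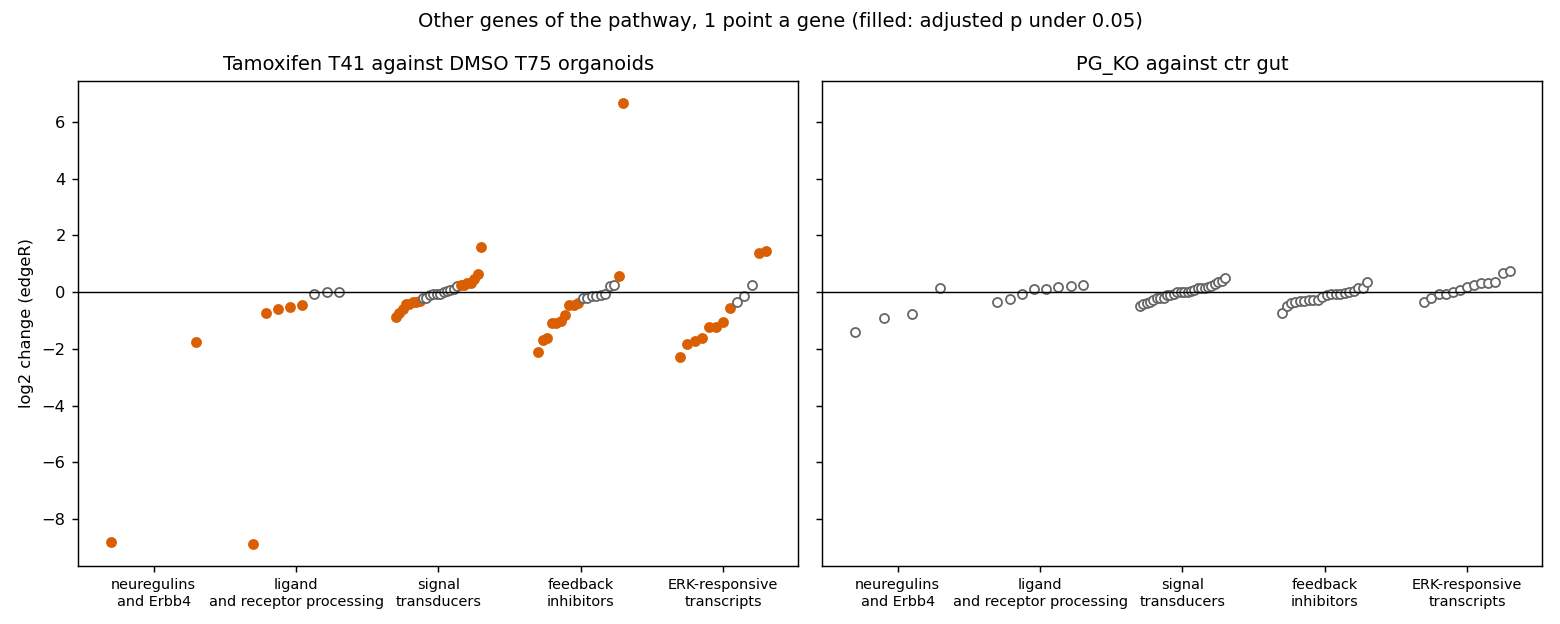
Log2 change (edgeR) of the other genes of the pathway, 1 point a gene grouped by list, in Tamoxifen T41 against DMSO T75 organoids (left) and PG_KO against ctr gut (right), filled where the adjusted p was under 0.05. Nrg1 and Timp3 lie below -8 and Lrig3 above 6 in organoids, and no point is filled in gut.

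Between DMSO and nativ organoids, both coded T75, the labels differ only in the words DMSO and nativ. No member was called, with 0.00% of the 16449 tested genes called by edgeR. At an unadjusted p under 0.05 edgeR gave 2408 genes and 2 of the 9 tested members, and DESeq2 called 157 genes and 0 members. Those members were Egf, with a log2 change of 1.22 (SE 0.31, unadjusted p = 0.00247, adjusted p = 0.291), and Tgfa, with 0.26 (SE 0.10, unadjusted p = 0.0285, adjusted p = 0.31). In both, all 3 DMSO libraries lay above all 3 nativ libraries, though the share of all genes with such a separation was not counted. For Areg the interval of 1.96 SE ran from -0.11 to 0.37 and for Hbegf from -0.35 to 0.23. Between Tamoxifen and DMSO organoids the log2 changes of these 2 genes were 1.96 and -1.59. No gene of the neuregulin, processing, transducer, feedback or ERK lists was called. Timp3 stood furthest apart among the processing genes, at 1.45 (SE 0.45, adjusted p = 0.291), beside Furin at 0.36 (SE 0.10, adjusted p = 0.291). Lowest p-values elsewhere belonged to Ptpn2 (-0.37) and Lrig1 (0.32), to Plcg1 (0.28) and Shc1 (0.19), to Etv4 (0.27) and Spry4 (0.55), and to Nrg1 (0.30) and Nrg4 (0.10), with adjusted p from 0.291 to 0.767.

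In gut no member was called between PG_KO and ctr. edgeR called 0.00% of 18043 tested genes, with 2705 genes and 0 of the 10 members at an unadjusted p under 0.05, and DESeq2 called 458 genes and 0 members. Without ctr replicate 3, edgeR called 1478 genes and 0 members. The median log2 change was 0.17 over the members and -0.03 over all tested genes.

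Of the ligands of the cluster, Ereg and Epgn varied widely between the libraries of a gut group. Ereg had 219, 88.8 and 19.3 CPM in PG_KO, against 122, 73.6 and 33.9 CPM in ctr gut, with wide overlap and a log2 change of 0.58 (SE 0.83, adjusted p = 0.719). Areg had 121, 59.7 and 54.2 CPM in PG_KO, against 100, 79.6 and 71.9 CPM in ctr gut (-0.06, SE 0.35, adjusted p = 0.936). Epgn, nearly absent from organoids, had 6.27, 1.98 and 0.444 CPM in PG_KO, against 1.61, 1.30 and 4.74 CPM in ctr gut (0.22, SE 0.96, adjusted p = 0.916). Within each of these genes 1 PG_KO library, replicate 1, was the highest of its group. The change of Ereg was -0.49 without that library, and that of Epgn was -1.10.

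Btc had 13.5, 11.0 and 9.26 CPM in PG_KO, against 19.7, 8.15 and 13.7 CPM in ctr gut (log2 change -0.27, SE 0.35, adjusted p = 0.685), below every organoid library. Hbegf had 88.8, 91.4 and 61.1 CPM in PG_KO, against 59.2, 59.8 and 70.1 CPM in ctr gut, a change of 0.36 (SE 0.20, adjusted p = 0.386). PG_KO replicate 3 fell inside the ctr range for Hbegf, and the other 2 lay above it. Tgfa had 54.6, 44.5 and 36.9 CPM in PG_KO, against 32.5, 28.1 and 54.0 CPM in ctr gut (0.26, SE 0.30, adjusted p = 0.657). Egf averaged 0.479 ± 0.168 CPM in PG_KO and 0.772 ± 0.250 CPM in ctr gut (SD, n = 3 each), a change of -0.69 (SE 0.45, adjusted p = 0.444).

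Among the receptors in gut, Erbb2 had 129, 128 and 154 CPM in PG_KO, against 84.1, 98.9 and 126 CPM in ctr gut, and each PG_KO library was above each ctr library. Its log2 change of 0.41 (SE 0.20, adjusted p = 0.36) did not pass, and the share of all genes with such a separation was not counted. Erbb3 had 209, 223 and 214 CPM in PG_KO, against 149, 187 and 258 CPM in ctr gut (0.12, SE 0.23, adjusted p = 0.792). Egfr had 75.3, 52.2 and 35.3 CPM in PG_KO, against 74.4, 42.9 and 57.3 CPM in ctr gut (-0.07, SE 0.33, adjusted p = 0.923) with wide overlap. Nrg1, which had 1 read in Tamoxifen organoids, had 49.9, 35.0 and 9.88 CPM in PG_KO, against 91.8, 49.6 and 26.0 CPM in ctr gut (-0.77, SE 0.65, adjusted p = 0.53).

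Epithelial markers summed to 14099, 11400 and 13367 CPM in PG_KO, against 7106, 8178 and 11399 CPM in ctr gut, and the groups came close to each other without overlap. Fibroblast markers summed to 1270, 1367 and 629 CPM in PG_KO, against 3627, 2161 and 919 CPM in ctr gut, and smooth muscle markers to 489, 703 and 905 CPM in PG_KO, against 3518, 2667 and 533 CPM in ctr gut. Macrophage and neutrophil markers summed to 565, 455 and 111 CPM in PG_KO, against 1364, 265 and 496 CPM in ctr gut. Tuft cell and endothelium markers overlapped between the groups. A further 6 lists had lower sums in every PG_KO library than in every ctr library. The share of all genes with such a separation was not counted. B and plasma cell markers summed to 78.1 to 171 CPM in PG_KO, against 203 to 582 CPM in ctr gut, and markers of T, NK and innate lymphoid cells to 6.53 to 12.4 CPM in PG_KO, against 16.1 to 21.2 CPM in ctr gut. Mast cell and basophil markers summed to 10.3 to 12.5 CPM in PG_KO, against 15.3 to 38.7 CPM in ctr gut, and enteric neuron and glia markers to 53.6 to 72.2 CPM in PG_KO, against 80.7 to 185 CPM in ctr gut. Small intestinal enterocyte markers summed to 18.4 to 50.7 CPM in PG_KO, against 55.3 to 118 CPM in ctr gut. The 3 tested genes of that list went different ways, with log2 changes of 1.79 for Alpi (SE 0.52), 0.06 for Fabp2 (SE 0.60) and -1.18 for Apob (SE 0.47). Paneth cell markers summed to at most 10.4 CPM in PG_KO, against at least 15.5 CPM in ctr gut. edgeR called no gene of these lists in gut, and their part in the levels of the members was not tested.

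The other pathway lists had no called gene in gut either, so the genes with the smallest p are given by value. They were Hras and Nras, both small GTPases, among the transducers, with log2 changes of 0.50 (SE 0.14) and 0.35 (SE 0.14), each at an adjusted p of 0.33. Among the processing genes they were Cnih4, which helps to export ligand precursors (0.22, SE 0.13, adjusted p = 0.393), and Adam17 (0.26, SE 0.15, adjusted p = 0.404). Feedback inhibitors gave Spry1 (-0.75, SE 0.44, adjusted p = 0.402) and Spry2 (-0.27, SE 0.19, adjusted p = 0.467). ERK-responsive genes gave Etv4 (0.74, SE 0.33, adjusted p = 0.34) and Ccnd1 (0.34, SE 0.25, adjusted p = 0.48), and neuregulins gave Nrg2 (-0.90, SE 0.50, adjusted p = 0.383) and Nrg3 (-1.40, SE 0.82, adjusted p = 0.404).

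Whether a member changed differently in gut (PG_KO against ctr) than in organoids (Tamoxifen against DMSO) was tested with an interaction term in 1 fit of 12 libraries. Of the 10 members, the change in gut minus that in organoids was called positive for 2 and negative for 1. Of 19141 tested genes 36.4% were called, 15.7% positive and 20.7% negative. For Areg the change in gut minus that in organoids was -2.07 (SE 0.42, adjusted p = 0.0028), with a change of -0.06 in gut and 1.96 in organoids. For Hbegf it was 1.91 (SE 0.25, adjusted p = 0.000203), with 0.36 in gut and -1.59 in organoids, and for Tgfa 1.76 (SE 0.32, adjusted p = 0.00158), with 0.26 in gut and -1.54 in organoids. The differences of Ereg (-2.06, SE 0.99, adjusted p = 0.132) and Btc (-0.94, SE 0.37, adjusted p = 0.0674) did not pass. Without PG_KO replicate 1 both passed, Ereg at -3.17 (adjusted p = 0.0169) and Btc at -1.15 (adjusted p = 0.0382). Btc also passed without ctr replicate 2 (-1.20, adjusted p = 0.00922), and Erbb2 passed without ctr replicate 3 (0.64, adjusted p = 0.0229).

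Across all 5 groups the order of mean levels differed from member to member, and neighbours in that order often overlapped. Areg averaged 235 ± 2.75 CPM in Tamoxifen, 57.9 ± 10.5 CPM in DMSO and 50.8 ± 1.63 CPM in nativ organoids, and 78.4 ± 37.2 CPM in PG_KO and 84.0 ± 14.8 CPM in ctr gut (SD, n = 3 each). Tamoxifen organoids came first and stood apart, and the lower neighbours overlapped. Ereg averaged 35.1 ± 0.433 CPM in Tamoxifen, 5.60 ± 1.97 CPM in DMSO and 5.25 ± 1.64 CPM in nativ organoids, and 109 ± 102 CPM in PG_KO and 76.6 ± 44.3 CPM in ctr gut. Both gut groups came first for Ereg, the Tamoxifen libraries lay inside their ranges, and the only step without overlap was that down to the T75 organoids.

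Hbegf averaged 43.4 ± 1.80 CPM in Tamoxifen, 125 ± 17.7 CPM in DMSO and 127 ± 31.5 CPM in nativ organoids, and 80.4 ± 16.8 CPM in PG_KO and 63.0 ± 6.16 CPM in ctr gut. Both T75 groups came first and overlapped, both gut groups followed and overlapped, and Tamoxifen organoids were last and apart. Tgfa averaged 64.9 ± 2.64 CPM in Tamoxifen, 181 ± 6.63 CPM in DMSO and 147 ± 30.3 CPM in nativ organoids, and 45.3 ± 8.92 CPM in PG_KO and 38.2 ± 13.9 CPM in ctr gut. All organoid groups came before gut, and only the gut groups overlapped.

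Btc averaged 66.3 ± 1.81 CPM in Tamoxifen, 41.3 ± 6.69 CPM in DMSO and 33.9 ± 4.31 CPM in nativ organoids, and 11.3 ± 2.11 CPM in PG_KO and 13.8 ± 5.76 CPM in ctr gut. Tamoxifen organoids came first, the T75 groups second with overlap, and the gut groups last with overlap. Neighbours overlapped throughout for Egfr, whose lowest mean was 43.3 ± 0.452 CPM in Tamoxifen organoids and whose highest was 58.2 ± 15.8 CPM in ctr gut. Erbb2 neighbours overlapped throughout as well, with the highest mean of 161 ± 3.68 CPM in Tamoxifen organoids and the lowest of 103 ± 21.5 CPM in ctr gut. Erbb3 averaged 323 ± 6.55 CPM in Tamoxifen, 254 ± 70.7 CPM in DMSO and 259 ± 28.0 CPM in nativ organoids, and 215 ± 6.99 CPM in PG_KO and 198 ± 55.1 CPM in ctr gut, and the only step without overlap was that from Tamoxifen to nativ organoids.

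Pairs of members were compared by Pearson's r of log2 CPM over the 15 libraries, which share 5 groups and 2 kinds of sample, so r is a description only. The highest values were those of Erbb2 with Erbb3 (0.84), Ereg with Epgn (0.82) and Hbegf with Tgfa (0.73). The lowest were those of Ereg with Tgfa (-0.84) and Areg with Hbegf (-0.82). Among other genes, taken where any group averaged 5 CPM or more, the pattern of Tgfa was most like those of Mycbpap (0.990), Arhgap8 (0.989) and Shb (0.984), and that of Areg most like Cyp4v3 (0.968), Prlr (0.965) and Slc39a14 (0.963). Ereg was nearest to Sod2 (0.974), Itga1 (0.969) and Ccdc88b (0.967), and Epgn to Gprc5a (0.978), Stom (0.976) and Hk2 (0.975).

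Hbegf was nearest to Sh2d4b (0.974), Pcgf5 (0.967) and Capn5 (0.962), and Btc to Pgap1 (0.976), Tm4sf4 (0.974) and Usp32 (0.966). The receptors had less close neighbours. Egfr was nearest to Slc7a2 (0.863), Furin (0.846) and Rapgef2 (0.841), Furin being the gene of a protease on the processing list. Erbb2 was nearest to Tbc1d8b (0.917), Hbs1l (0.915) and Brwd3 (0.910), and Erbb3 to Arfgef3 (0.936), Fam13a (0.931) and Brwd3 (0.928). Egf, at under 1 CPM in every library, reached only 0.763 with Nhlrc3, 0.727 with Sort1 and 0.724 with Gcn1.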

How the data were processed

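The authors deposited expected counts, that is reads per gene not scaled between libraries, in 1 table for organoids and 1 for gut. Per the submitters' processing notes the build was GRCm38.p6 and the tools were STAR 2.7.2b, featureCounts 1.6.4, DESeq2, cutadapt 2.5 and bcl2fastq 2.20.0.422. The strand setting is not given in the sources used here. Per the labels, RNA integrity numbers were at least 7.7. Values with any fractional part make up 10.4% to 13.7% of each library, so some reads were divided among genes, and values were rounded before fits. One gut column spelled gtr was matched to ctr by its code.

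Groups follow the descriptions. The main test was the edgeR 4.0.16 quasi-likelihood F test in R 4.3.3, with robust dispersions, TMM scaling and low-count filtering by filterByExpr. P-values were adjusted by Benjamini-Hochberg over every gene tested. All 9 organoid libraries, the 6 gut libraries, or 12 libraries for the interaction entered 1 fit each. SE is |log2 change|/√F. Library totals scale CPM, and length-scaled values use combined exon lengths of the deposited annotation. A fold against 1 to 3 reads is given with a counting interval of 95%. Intervals on log2 changes are 1.96 SE. The code was tested on simulated counts.

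Members, gene lists and tests were chosen with earlier results of these data known. Of each list the genes with the smallest p are named, 4 where any was called and 2 otherwise. One of the signal transducers so chosen is not reported here. A few others are named after their values were seen (Adam17, Dusp6, Spry4, Emp1, Etv5, single marker genes and the neighbours on chromosome 5). The genes nearest to a member are the 3 with the highest Pearson r of log2 CPM (prior count 2), leaving out predicted genes and pseudogenes. Alternatives were DESeq2 1.42.0, limma-voom (limma 3.58.1), scaling by library totals or RLE, filtering at 1 CPM in 3 libraries or not at all, a block by replicate number, fits restricted to the 6 libraries compared, and leaving out libraries. Python 3.11.15 and matplotlib 3.10.9 drew the figures.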

Additional observations from a re-analysis of the deposited data

Results flagged for a closer look

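In 3 ligands the change in gut (PG_KO against ctr) differed from that in organoids (Tamoxifen against DMSO) by the interaction test of edgeR. They are 3 of 10 members, where 36.4% of all tested genes were called, so the count does not set the family apart. The change in gut minus that in organoids was -2.07 for Areg (adjusted p = 0.0028), 1.91 for Hbegf (adjusted p = 0.000203) and 1.76 for Tgfa (adjusted p = 0.00158). In each of them the organoid change was called and the gut change was not. Fibroblast and smooth muscle markers, at most 1.54 CPM when summed in organoid libraries, were at 489 CPM or more in gut, and their part in these differences was not tested.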

How the results depend on the processing

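Calls of Areg, Ereg, Btc, Hbegf and Tgfa between Tamoxifen organoids and both T75 groups kept their direction and stayed called under every alternative run. DMSO against nativ, with 0 genes called, gave 157 with DESeq2, 2 without a low-count filter and 0 to 1 with 1 library left out. PG_KO against ctr, also 0, gave 458 with DESeq2, 5 without a filter and 0 to 1478 with 1 library left out. Negative interactions were called for 1 member in the main fit. They numbered 2 with DESeq2 (Btc added), 3 with the replicate block and 1 to 3 with 1 library left out. Same-numbered libraries did not deviate together throughout (r from -0.13 to 0.25 in organoids and from -0.18 to 0.29 in gut). These values do not settle whether the numbers pair libraries. With the replicate block edgeR called 10823, 10838, 0, 0 and 6062 genes in the 5 comparisons, and the interaction of Ereg passed (-2.56, adjusted p = 0.00496), as did that of Btc (-0.90, adjusted p = 0.0361).

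Signs turned only for changes that were not called. In gut Epgn was -0.28 with limma-voom and -0.02 with the replicate block, and without ctr replicate 1 and PG_KO replicate 3 together Areg was 0.27, Btc 0.16, Egfr 0.35 and Erbb3 -0.06. With 1 library left out, gut changes ran from -0.56 to 0.17 for Areg, -0.50 to 0.03 for Btc, -1.10 to 1.11 for Epgn, -0.41 to 0.18 for Egfr, -0.07 to 0.41 for Erbb3 and -0.49 to 1.09 for Ereg. DMSO against nativ ran from -0.20 to 0.26 for Ereg, -0.20 to 0.10 for Hbegf, -0.27 to 0.13 for Erbb3 and -0.01 to 0.21 for Egfr. Erbb2 ran from -0.04 to 0.15 in Tamoxifen against DMSO, and interactions from -0.39 to 0.18 for Erbb3 and -0.13 to 0.62 for Egfr. The causes were not tested. With library totals the median of all genes in Tamoxifen against nativ was 0.13 in place of 0.01. At 1 CPM in 3 libraries Egf was not tested. Scaling by TMM moved 3 group levels by more than 1 SD and 47 by less, and leaving out length moved 37 shares by more and 18 by less.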
